A study of Mus musculus with 18 samples.

Results

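The comparison described here is the difference between 2 resection responses in cardiac fibroblasts: the change from sham to resected libraries after apical resection at postnatal day 10 (P10), minus the same change after resection at P2. It uses 12 of the 18 libraries of the series, 3 in each of 4 groups, and 16170 genes that passed a filter on low counts, of 55453 gene symbols. A positive log2 difference means that the resected-over-sham fold was larger at P10 than at P2. The question behind it is how fibroblasts respond to an injury at an age when the mouse heart regenerates compared with an age when it scars.

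Cardiac fibroblasts make the collagens and other matrix proteins of the heart, and after injury they divide, secrete matrix and remodel it. Dividing cells turn on DNA replication genes in S phase and then a large set of mitotic genes in G2 and M phase, which many cells share. Interferon-stimulated genes are a different shared program, switched on by interferon through a short promoter element. In the first days after birth many heart cells still divide, and much of this division ends during the following weeks.

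All libraries came from C57BL/6J pups that carried 1 Tcf21 allele with a tamoxifen-inducible Cre (Tcf21-MerCreMer) and the Rosa-mTmG reporter, and that received tamoxifen at P1. Tcf21 marks resident cardiac fibroblasts and, in the embryo, epicardial precursors, so GFP labels cells that expressed Tcf21 at or after P1 and their descendants, whatever they express later. The groups were P2 resected +3 days, P2 sham +3 days, P10 resected +3 days and, as its control, P10 sham +3 days. Pups had the ventricular apex removed, or sham surgery, at P2 or P10 and were collected 3 days later, at P5 or P13. The sorted population was the GFP+ cells of the lower, apical portion of the ventricles, and older hearts were digested for longer. Pup sex and the number of pups that make up a library are not given in the sources used here, so p-values measure only the spread between these libraries. Age at surgery, age at collection and digestion time change together and cannot be told apart.

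The 12 libraries held between 14297349 and 22980554 counts on genes. The fibroblast genes Tcf21 and Pdgfra were detected in every library, and the summed level of 14 cardiac fibroblast markers lay between 54460 and 118800 CPM (counts scaled to the library total after TMM normalisation). When every library was thinned to the same depth, 16652 ± 552 genes were detected in P2 sham and 19469 ± 581 in P2 resected libraries, against 16090 ± 81.5 in P10 sham and 17825 ± 1250 in P10 resected libraries (SD, n = 3). The gain with resection differed by −1082 genes (P10 minus P2), which did not pass a two-sided exact permutation test of labels within each age (p = 0.55, smallest possible p = 0.005). That test also shuffles the gain the ages share, which widens its reference distribution. The value was −1802 without P10 resected replicate 1 (exact permutation p = 0.19) and −705 without P10 resected replicate 3, and −362.7 when genes were counted from 5 counts. Xist, the RNA that coats the inactive X chromosome, was between 0 and 274 CPM and was at 0 in the 3 P10 resected libraries and in 2 of the 3 P10 sham libraries, so libraries with and without it were unevenly spread over the groups.

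No gene passed the test of the difference between the ages. Among the 16170 genes, 0 (0%) had an adjusted p under 0.05 by edgeR's quasi-likelihood test, and the smallest adjusted p was 0.99996. At an unadjusted p under 0.05 stood 465 genes (2.88%), of which 239 (1.48%) had the larger fold at P10 and 226 (1.4%) the smaller. limma voom with sample quality weights also called 0, with 857 genes at an unadjusted p under 0.05, and DESeq2 called 26. Of these 26, 21 had a surgery group with 3 counts or fewer in total, and the other five were Cenpe, Pif1, Sapcd2, Lekr1 and Ercc4, all with the larger fold at P10. The resection effects themselves were also uncalled by edgeR: 0 genes at P2 with 730 at an unadjusted p under 0.05, and 0 at P10 with 661, the smallest adjusted p being 0.626 at P10, a value that Kif20a shared with other genes, Timp1 and Cenpe among them. edgeR without the filter on low counts called 30 genes for the difference, Kif20a (adjusted p = 0.00181), Isg15 (adjusted p = 0.00191) and Nr1d1 (adjusted p = 0.0189) among them. In what follows, values are those of edgeR with the filter, in which every adjusted p of the difference is at least 0.99996, and an unadjusted p is given only to place a gene among the others.

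The interval on a single gene was wide. Over the 14639 genes with more than 3 counts in each of the 4 groups, the median difference was 0.03 on the log2 scale, the median standard error 0.64 and the median half-width of the 95% interval 1.36. Across these genes the P2 and P10 effects had a Pearson correlation of 0.142 and a Spearman correlation of 0.171, as a description over genes, which are not independent replicates, in libraries that share no sample between the ages. The sign of the effect was the same at both ages for 57.8% of them.

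**Figure D1:**
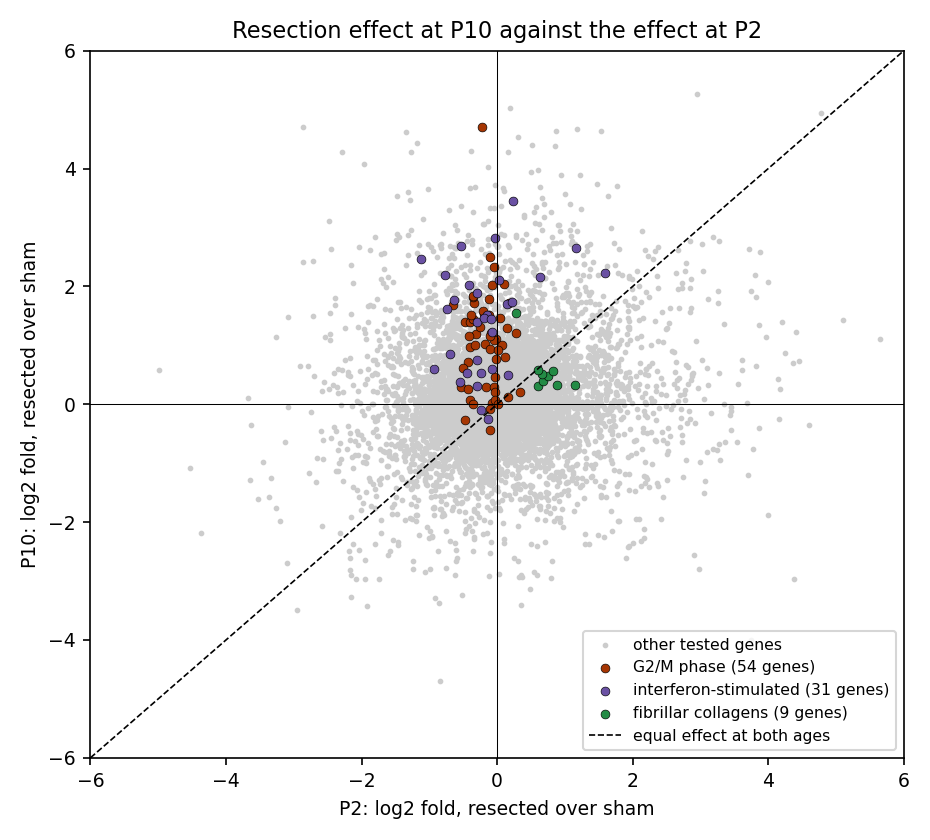
Each point is 1 of 14639 genes with more than 3 counts in every surgery group, with the log2 fold of resected over sham at P2 on the x axis and at P10 on the y axis. The dashed line marks equal effects, and 3 genes lie outside the axes. G2/M genes (red) and interferon-stimulated genes (purple) lie mostly near 0 at P2 and above 0 at P10, while the 9 fibrillar collagens (green) are above 0 at both ages.

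Mitotic genes had the larger resection fold at P10. Of 54 G2/M phase genes, all of them tested, 50 had a difference above 0, against 52.3% of all genes tested, with a median of 1.17 against 0.03. Of the 54, 12 had an unadjusted p under 0.05 with the larger fold at P10 and 0 with the smaller, and none passed the adjusted threshold in edgeR with the filter on low counts. Cenpe passed it in DESeq2 (adjusted p = 0.0309) and in edgeR without the filter (adjusted p = 4.2e-09). The median log2 fold of the list was −0.12 at P2 and 1.10 at P10. Resected libraries lay above all sham libraries at P10 for 13 of the 54 (background 5.63% of genes tested) and at P2 for 0 of the 54 (background 5.62%), and lay below all sham libraries at P2 for 2 (background 2.85%) and at P10 for 0 (background 3.04%).

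The larger fold at P10 started from a lower level. The mean log2 CPM of the G2/M genes was between 5.65 and 6.13 in the P2 sham libraries and between 5.58 and 6.13 in the P2 resected libraries, which overlapped. At P10 it was between 2.59 and 3.44 in the sham libraries and between 3.59 and 4.75 in the resected libraries, which did not overlap. The mean level at P10 minus that at P2 was −3.00 among sham libraries and −1.68 among resected libraries on the log2 scale. All 54 genes had a lower mean in P10 resected than in P2 resected libraries, so that the P10 resected mean stood between the P10 sham and P2 means. On the linear scale the median change with resection was 6.76 CPM at P10 and −6.62 CPM at P2. In such bulk libraries, fewer dividing cells and less RNA per dividing cell cannot be told apart.

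**Figure D2:**
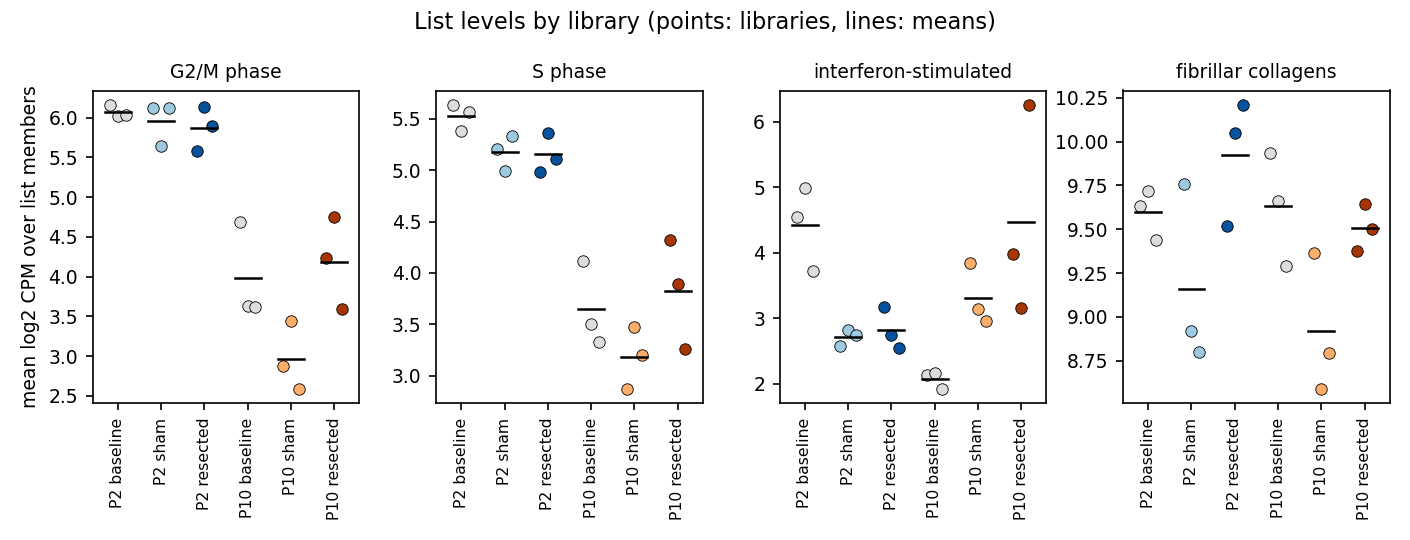
Mean log2 CPM over the members of 4 gene lists (y axis) in each library (points) of the 6 groups, with the group mean as a line. G2/M and S phase genes are lower at P10, with the P10 resected mean between the P10 sham and P2 means, and the interferon list is set apart by 1 P10 resected library at 6.26.

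Kif20a, a kinesin of the central spindle needed for cytokinesis (chr18:34624613-34633277 on GRCm38, plus strand), had the smallest unadjusted p of the difference among genes with over 3 counts in each group. It was at 45.5, 62.7 and 98.8 CPM in the P2 sham libraries and at 46.3, 91.5 and 64.2 in the P2 resected libraries, which overlapped. It was at 1.15, 6.92 and 3.35 CPM in the P10 sham libraries and at 17.6, 41.8 and 15.2 in the P10 resected libraries, so the P10 groups did not overlap. The log2 fold was −0.03 ± 0.48 (SE) at P2 and 2.72 ± 0.53 (SE) at P10, and the difference was 2.75 (SE 0.70, 95% interval 1.27 to 4.24, unadjusted p = 0.0011). Its exons overlap those of the antisense gene Cdc23 over 29.3% of their bases, and the counting took no account of strand, so its count may hold reads of Cdc23.

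Cenpe, the kinetochore motor that aligns chromosomes (chr3:135212537-135273611), was nearly silent in the P10 sham libraries, at 0.0499, 0 and 0.754 CPM, and at 6.21, 11.4 and 5.44 in the P10 resected libraries. At P2 it was at 116, 8.62 and 38.4 CPM in sham and 33.6, 46.7 and 58.9 in resected libraries, and the sham values spanned the resected ones. Its difference was 4.94 (SE 1.26, unadjusted p = 0.00111), which rests on 17 counts over the 3 P10 sham libraries. With 1 library left out, the difference ran from 3.72 to 8.01.

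Cks2, a small partner of cyclin-dependent kinases (chr13:51645232-51650660), was at 2.5, 3.49 and 2.26 CPM in P10 sham and 7.75, 8.45 and 5.44 in P10 resected libraries, with no overlap. At P2 it was at 18.8, 38.7 and 27.1 CPM in sham and 15.1, 21.8 and 24 in resected libraries, and these overlapped. The difference was 1.87 (SE 0.52, 95% interval 0.77 to 2.96, unadjusted p = 0.00226), and 26.9% of the 75-base stretches of its transcripts also occur in pseudogenes, so its count is uncertain.

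Birc5, which encodes survivin, a subunit of the chromosomal passenger complex (chr11:117849251-117855743), was at 4.39, 9.44 and 6.18 CPM in P10 sham and 21.5, 33.9 and 10.3 in P10 resected libraries. At P2 it was at 67.8, 105 and 96.7 CPM in sham and 52, 95.8 and 65.7 in resected libraries. The P10 groups did not overlap and the P2 groups did, and the difference was 2.05 (SE 0.59, 95% interval 0.82 to 3.29, unadjusted p = 0.00265).

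Psrc1, Ndc80 and Pimreg, members of the G2/M list, were picked after their values were seen, and edgeR with the filter called none of them, nor Pif1 or Sapcd2. Kif20a, Pif1, Sapcd2, Ccna2 and Ccnb1 are not members of the G2/M list and do not enter its counts. Psrc1, a microtubule-binding protein, was above all sham libraries at P10 and below all of them at P2, with 1.95, 2.26 and 0.519 CPM in P10 sham, 4.03, 8.45 and 2.72 in P10 resected, 24, 25.4 and 22 in P2 sham and 16.5, 16.4 and 12.6 in P2 resected libraries. Its difference was 2.34 (SE 0.71, unadjusted p = 0.0043). Ndc80, a kinetochore subunit, differed by 2.19 (SE 0.72, unadjusted p = 0.0075), and Pimreg by 2.19 (SE 0.70, unadjusted p = 0.0062). With 1 library left out, the difference of Pimreg ran from 1.275 to 2.902. Pif1, a DNA helicase, was at 0, 0 and 0.236 CPM in P10 sham and 1.19, 3.37 and 2.41 in P10 resected libraries, and its difference of 4.92 (SE 1.35, unadjusted p = 0.00202) rests on 5 counts in P10 sham libraries. Sapcd2, a regulator of spindle orientation, was at 1.1, 1.29 and 1.37 CPM in P10 sham and 2.44, 6.86 and 3.88 in P10 resected libraries, and differed by 2.80 (SE 0.72, unadjusted p = 0.00118).

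The cyclins and the usual proliferation markers had smaller or less certain differences. Cdk1, the kinase that drives entry into mitosis, was at 10.5, 27.7 and 11.6 CPM in P10 sham and 42.5, 51.5 and 16.2 in P10 resected libraries, which overlapped, and at 108, 262 and 213 in P2 sham and 108, 166 and 164 in P2 resected libraries. Its difference was 1.57 (SE 0.62, unadjusted p = 0.0222). The difference was 1.49 (SE 0.61, unadjusted p = 0.0257) for Ccna2 (cyclin A2), 1.53 (SE 0.74, unadjusted p = 0.054) for Ccnb1 and 0.79 (SE 0.51, unadjusted p = 0.138) for Ccnb2 (cyclins B1 and B2). Mki67, the antigen Ki-67, differed by 1.90 (SE 1.40, 95% interval −1.06 to 4.86, unadjusted p = 0.194) and Top2a, a topoisomerase of dividing cells, by 1.29 (SE 0.83, 95% interval −0.45 to 3.03, unadjusted p = 0.137). Without P2 sham replicate 1 the difference of Mki67 was 0.21, and without P10 resected replicate 2 that of Ccnb2 was 0.17. Mki67 ranged from 33.3 to 433 CPM among the P2 sham libraries alone. Ccnb1 shares 18.9% of its 75-base stretches with pseudogenes, and Ccna2 overlaps the antisense gene Exosc9 over 12.5% of its exon bases.

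**Figure D3:**
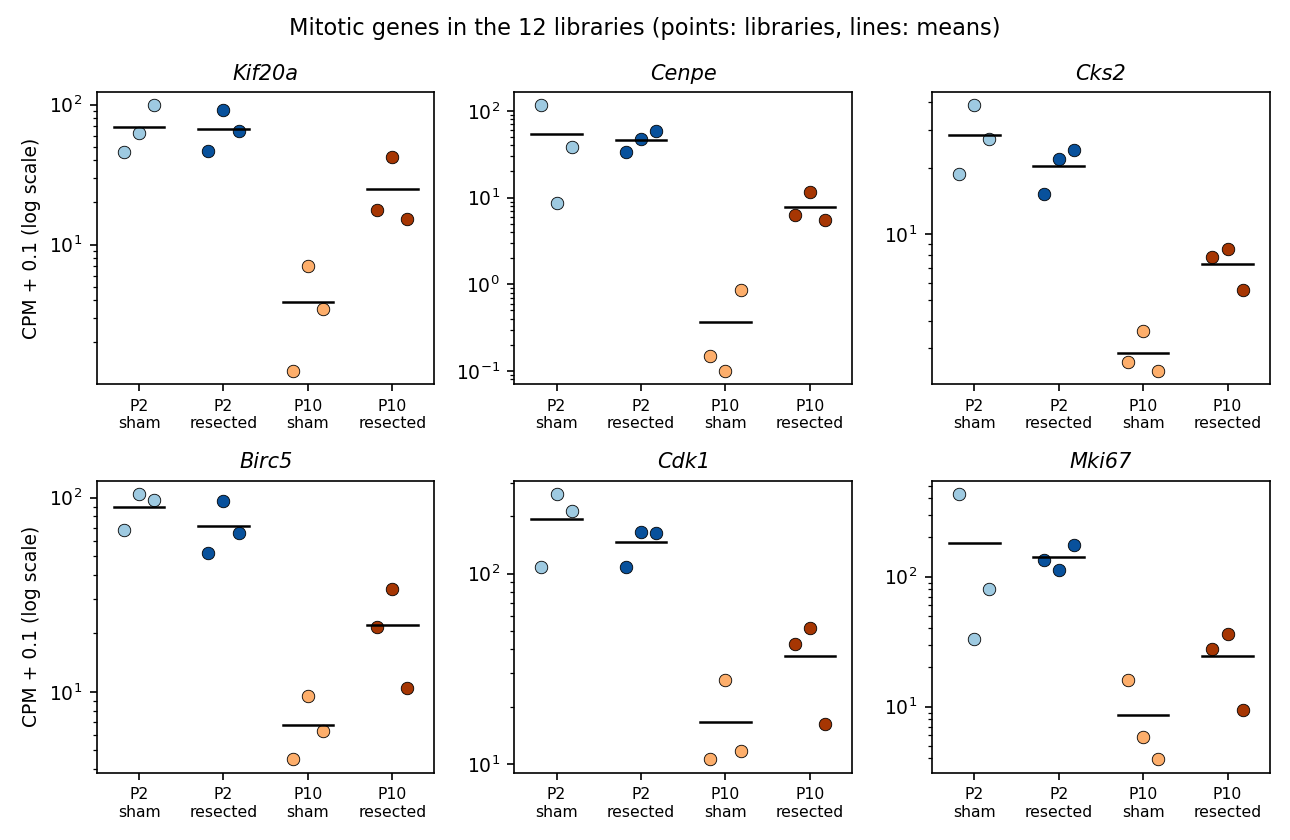
CPM plus 0.1 on a log axis for 6 mitotic genes in the 12 libraries (points), with group means as lines. In each panel the P2 sham and P2 resected libraries overlap, the P10 sham group has the lowest mean, and the P10 resected mean lies between it and the P2 means.

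The libraries were unequal in this. In the P10 resected group, replicate 2 was the highest for 43 of the 54 G2/M genes, and without it the median difference of the list was 0.81, with 45 of 54 above 0. Without P10 resected replicate 3, the median was 1.53. Replicate 2 also had the highest level of 12 of 15 macrophage markers in that group, with a summed level of 1153 CPM against 495.2 in replicate 1 and 81.96 in replicate 3. In replicate 3, the summed macrophage level was below that of each P10 sham library (105.2 to 397.6 CPM), while its level of wound macrophage markers, a mean log2 CPM of 2.08, was above each of theirs (−0.33 to 0.67). Its G2/M level of 3.59 was also above each of theirs. The part of macrophages in the G2/M levels was not tested.

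Bub1, a spindle checkpoint kinase, Cdc25c, a phosphatase that activates Cdk1, Iqgap3 and Troap had calls that hung on 1 sham library, and were picked after their values were seen. Bub1 had 0, 48 and 0 counts in the 3 P10 sham libraries, and 5.77, 8.13 and 3.11 CPM in the P10 resected libraries. All 4 genes had counts in P10 sham replicate 2 alone of that group, and they were the 4 genes called by edgeR when that library was left out. With it, the difference was 2.61 (SE 1.38, unadjusted p = 0.0747) for Bub1, 2.10 (SE 1.42, unadjusted p = 0.156) for Cdc25c, 1.72 (SE 1.5, unadjusted p = 0.27) for Iqgap3 and 2.30 (SE 1.57, unadjusted p = 0.161) for Troap.

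Many G2/M promoters carry the cell cycle genes homology region (CHR), an element through which the DREAM and MuvB complexes repress and activate mitotic genes. It was searched on both strands as TTTGAA or as TTCGAA, which reads the same on both strands, in RefSeq promoter windows of GRCm38.p6, from 250 bases before to 50 after the gene start. Of the 47 G2/M genes with a window, 35 (74.5%) held a match, against 13.7% of the 11504 genes tested with a window and 19.4% of all 27025 windows. Of 31 S phase genes, 16.1% held one. Some matches upstream of the start of Cdk1, Mki67, Top2a and Cdc20 (a mitotic activator of the anaphase-promoting complex) are shown because these genes belong to the G2/M list described above, with the matched letters in capitals, read 5′ to 3′ on the gene's strand.
Cdk1, chr10:69352966-69352995, minus strand: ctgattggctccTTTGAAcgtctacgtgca
Cdk1, chr10:69352913-69352942, minus strand: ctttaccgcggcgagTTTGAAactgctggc
Mki67, chr7:135716478-135716507, minus strand: ttagcgccagaaTTTGAAccgccgttttgg
Mki67, chr7:135716460-135716489, minus strand: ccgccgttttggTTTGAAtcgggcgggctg
Top2a, chr11:99024351-99024380, minus strand: ctattggtccatTTTGAAgattctcccgcc
Top2a, chr11:99024312-99024341, minus strand: ctaattggtttaTTCGAAaaggcggtcttt
Cdc20, chr4:118437344-118437373, minus strand: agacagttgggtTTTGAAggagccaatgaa
Top2a also has matches at −120 and −23 from the gene start, which are not printed. A match describes the letters of the window and is not a measured binding site.

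S phase genes followed G2/M genes with a smaller difference. Of 43 genes, 38 had a difference above 0, with a median of 0.60, and 4 had an unadjusted p under 0.05 with the larger fold at P10 and 0 with the smaller. Their median log2 fold was −0.12 at P2 and 0.54 at P10, and resected libraries lay below all sham libraries at P2 for 5 of 43 (background 2.85%) and above them at P10 for 5 of 43 (background 5.63%). Rad51ap1, which assists homologous recombination, was at 39.7, 39.3 and 33.2 CPM in P2 sham and 22, 24.4 and 20.3 in P2 resected libraries, which did not overlap, and at 0.849, 4.01 and 3.63 in P10 sham and 10.6, 7.56 and 2.02 in P10 resected libraries, which did. Its difference was 2.01 (SE 0.73, unadjusted p = 0.013). Chaf1b, a subunit of the chromatin assembly factor, differed by 1.44 (SE 0.58, unadjusted p = 0.0232), and Gmnn, which encodes the licensing inhibitor geminin, by 1.46 (SE 0.60, unadjusted p = 0.0265). The list's median was lowest without P10 resected replicate 1, at 0.33. In that setting 31 of 43 genes were above 0 and 0 had an unadjusted p under 0.05. The list's mean log2 CPM was 2.87 to 3.47 in P10 sham and 3.26 to 4.32 in P10 resected libraries, which overlapped, unlike that of the G2/M genes.

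Interferon-stimulated genes had a large difference that rested on 1 library. Of 33 genes tested (of 34 listed), 31 had a difference above 0 with a median of 1.54, and 9 had an unadjusted p under 0.05 with the larger fold at P10 and 0 with the smaller. P10 resected replicate 3 was the highest of its group for 32 of the 33 genes, at a list mean of 6.26 on the log2 CPM scale against 3.98 and 3.16 in replicates 1 and 2. The P10 sham libraries were between 2.95 and 3.84, the P2 sham libraries between 2.58 and 2.82 and the P2 resected libraries between 2.54 and 3.17. Without that library the median difference was 0.28, with 20 of 33 genes above 0 and 1 at an unadjusted p under 0.05.

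Isg15, a ubiquitin-like modifier induced by interferon (chr4:156199424-156200818), was at 8.99, 6.14 and 9.2 CPM in P10 sham and 13.5, 10.1 and 134 in P10 resected libraries, and at 7.24, 24.8 and 7.18 in P2 sham and 11.7, 9.66 and 5.84 in P2 resected libraries. The P10 groups did not overlap and the P2 groups did. Its difference was 3.22 (SE 1.08, 95% interval 0.94 to 5.5, unadjusted p = 0.00836). Rtp4 was at 32, 16.1 and 204 CPM in the P10 resected libraries and differed by 2.19 (SE 0.90, unadjusted p = 0.0258), and Oas1a, an antiviral nucleotide synthetase, was at 4.77, 2.48 and 29.9 and differed by 2.95 (SE 1.18, unadjusted p = 0.0229). In all 3 genes the highest P10 resected value was that of replicate 3, without which the difference was 1.08 for Isg15, 0.40 for Rtp4 and 1.2 for Oas1a. Oas1a shares 47.6% of its 75-base stretches with its copy Oas1g.

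The interferon-stimulated response element, searched on both strands as GAAA, any 2 bases and GAAA in the same windows, was found in 13 of 24 interferon-stimulated genes with a window (54.2%), against 3.1% of the genes tested and 2.13% of the G2/M genes. The stretches at Isg15 and Oas1a are shown because these genes lead the list. Isg15 has 3 overlapping matches and Oas1a has 2, and in each stretch only 1 match is marked in capitals. The other matches overlap it and are in capitals only where they share its letters.
Isg15, chr4:156200871-156200900, minus strand: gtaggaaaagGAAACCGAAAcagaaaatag
Oas1a, chr5:120907526-120907555, minus strand: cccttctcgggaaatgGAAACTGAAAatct

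Fibrillar collagens, the main structural proteins of scar and of normal heart matrix, stood above sham at both ages without passing the test. All 9 genes had a log2 fold above 0 at each age, against 49.9% of genes tested at P2 and 52% at P10, with a median of 0.68 at P2 and 0.47 at P10. The difference was below 0 for 8 of 9, with a median of −0.27 that ran from −0.60 without P2 sham replicate 1 to −0.07 without P2 resected replicate 3. Resected libraries lay above all sham libraries for 2 of the 9 at P2 (background 5.62%) and for 4 of the 9 at P10 (background 5.63%). Col1a1 was at 10270, 5757 and 4340 CPM in P2 sham and 6451, 14120 and 15420 in P2 resected libraries, which overlapped, and at 8812, 5856 and 9089 in P10 sham and 10920, 14680 and 9385 in P10 resected libraries, which did not. Its difference was −0.26 (SE 0.49, 95% interval −1.30 to 0.77, unadjusted p = 0.599), an interval that includes 0. Col3a1 differed by −0.29 (SE 0.32, 95% interval −0.97 to 0.39, unadjusted p = 0.378). The smallest unadjusted p of the list were those of Col24a1, at 1.28 (SE 0.61, unadjusted p = 0.0519), and Col5a3, at −0.81 (SE 0.40, unadjusted p = 0.0609). None of the 9 genes had an unadjusted p under 0.05. At P10 the list's mean log2 CPM was 8.59 to 9.37 in sham, 9.37 to 9.64 in resected and 9.29 to 9.94 in baseline libraries, collected without surgery. At P2 it was 8.80 to 9.76 in sham, 9.52 to 10.21 in resected and 9.44 to 9.72 in baseline libraries. The baseline ranges thus overlapped the resected ranges at both ages.

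Over the 32 proteases and inhibitors of matrix turnover tested (of 36 listed), 12 differences were above 0 and the median was −0.12, which ranged from −0.51 without P2 sham replicate 1 to 0.15 without P10 sham replicate 1. Timp1, a secreted inhibitor of metalloproteinases (chrX:20870166-20874735), was at 33.8, 45.9 and 26.9 CPM in P2 sham and 36.2, 88.5 and 75.3 in P2 resected libraries, and at 49.5, 68.5 and 62.8 in P10 sham and 272, 146 and 493 in P10 resected libraries. The P2 groups overlapped and the P10 groups did not, with log2 folds of 0.91 ± 0.44 (SE) and 2.33 ± 0.45 (SE) and a difference of 1.43 (SE 0.62, 95% interval 0.13 to 2.72, unadjusted p = 0.0332). With 1 library left out, the difference of Timp1 ran from 0.90 to 1.755. Timp2, the inhibitor that also helps activate Mmp2 (chr11:118301069-118355740), was at 1350, 1313 and 1317 CPM in P2 sham and 1595, 1404 and 1785 in P2 resected libraries. At P10 it was at 3995, 3467 and 3232 CPM in sham and 2573, 3110 and 2958 in resected libraries, so resected libraries lay above all sham libraries at P2 and below all of them at P10. Its difference was −0.57 (SE 0.23, 95% interval −1.05 to −0.10, unadjusted p = 0.0206).

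Mmp2, a gelatinase (chr8:92827291-92853420), was at 2274, 1921 and 1663 CPM in P2 sham, 2610, 2258 and 2264 in P2 resected, 4366, 4055 and 3343 in P10 sham and 3020, 3820 and 3082 in P10 resected libraries, with overlap at both ages, and differed by −0.53 (SE 0.25, 95% interval −1.05 to −0.01, unadjusted p = 0.0478). At an unadjusted p under 0.05, 1 of the 32 (Timp1) had the larger fold at P10 and 2 (Timp2 and Mmp2) the smaller.

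The other matrix lists had medians below 0. Differences were above 0 for 4 of 24 genes of collagen processing and crosslinking (median −0.16), 4 of 22 of the basement membrane (median −0.40) and 8 of 27 matricellular genes (median −0.26). The sign of the basement membrane median hung on 1 library: it was 0.13 when P10 sham replicate 1 was left out, and −0.80 when P2 sham replicate 1 was. The matricellular median ran from −0.32 without P2 sham replicate 1 to 0.08 without P2 resected replicate 3, and resected libraries lay above all sham libraries for 8 of the 27 at P10 and 4 of the 27 at P2 (background 5.63% and 5.62%), and below them for 3 of the 27 at P10 (background 3.04%) and 0 of the 27 at P2 (background 2.85%). The median of collagen processing genes ran from −0.27 without P10 resected replicate 3 to −0.09 without P10 resected replicate 1. Fbln5, which organises elastic fibres, was at 280.5, 331 and 354 CPM in P2 sham and 539, 398 and 528 in P2 resected libraries, with no overlap, and at 754, 755 and 537 in P10 sham and 531, 687 and 749 in P10 resected libraries, with overlap. Its difference was −0.66 (SE 0.29, 95% interval −1.27 to −0.04, unadjusted p = 0.0378). Fbln2, another fibulin, differed by −0.73 (SE 0.35, unadjusted p = 0.0501), and Thbs2, a matricellular thrombospondin, by −0.79 (SE 0.43, unadjusted p = 0.086). With 1 library left out, the difference of Thbs2 ran from −1.025 to −0.32.

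**Figure D4:**
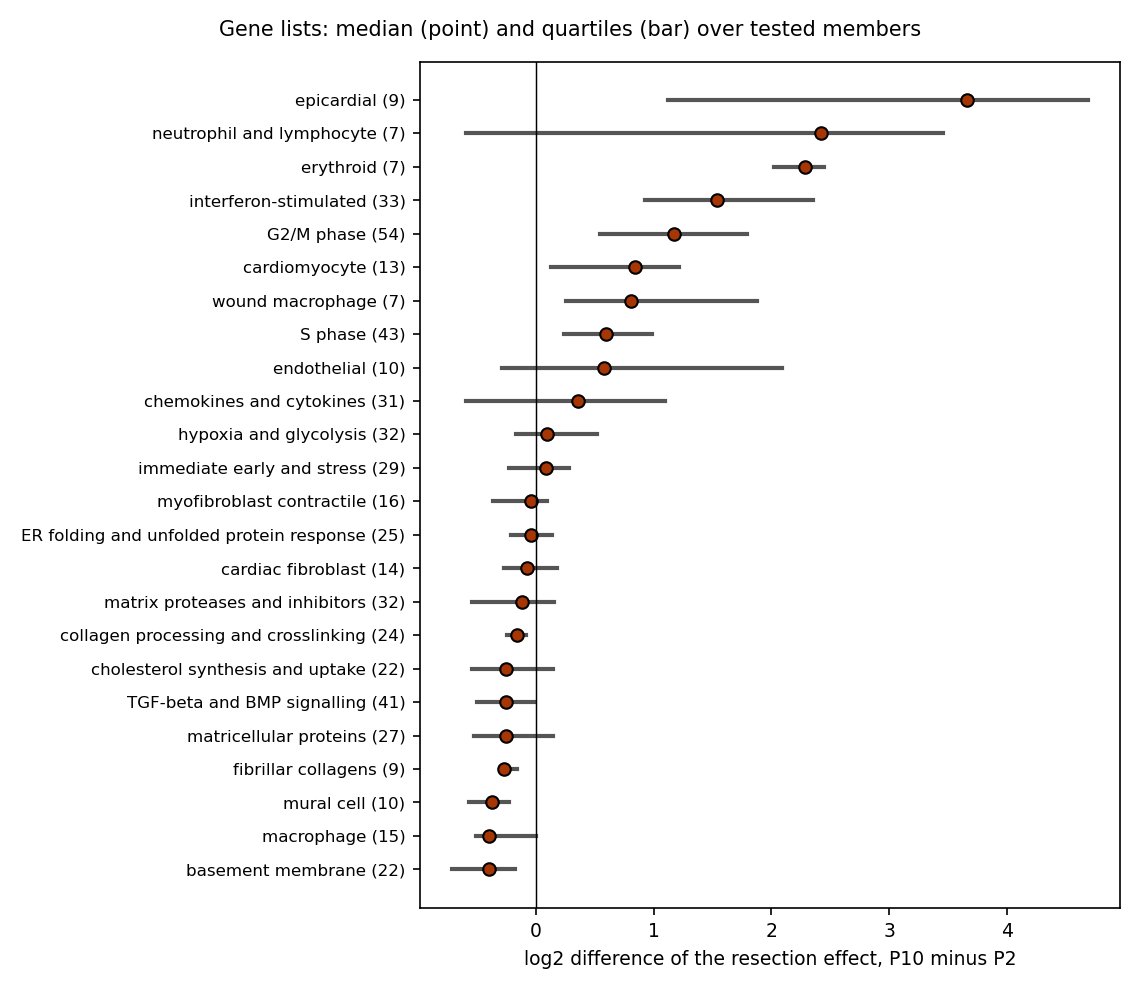
Median (point) and quartiles (bar) of the log2 difference, P10 minus P2, over the tested members of each list with 5 or more tested members (number in brackets), sorted by the median. Epicardial, neutrophil and lymphocyte, and erythroid markers, interferon-stimulated and G2/M genes stand highest, and basement membrane, macrophage and mural cell genes lowest of the lists drawn. The sex-linked genes (median −1.92 over 5 genes) are not drawn.

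TGF-beta and BMP signalling genes, which govern matrix production and fibroblast activation, had 9 of 41 differences above 0 and a median of −0.25, with 0 at an unadjusted p under 0.05 for the larger fold and 3 for the smaller. The median ran from −0.48 without P2 sham replicate 1 to −0.02 without P10 sham replicate 1. Tgfb3, a TGF-beta ligand, was at 135, 95.9 and 117 CPM in P2 sham and 126, 178 and 291 in P2 resected libraries, and at 214, 273 and 215 in P10 sham and 185, 235 and 206 in P10 resected libraries, with overlap at both ages. Its difference was −0.94 (SE 0.38, 95% interval −1.74 to −0.14, unadjusted p = 0.0242), and 12.4% of its exon bases overlap antisense genes. Ccn2, a target of TGF-beta and YAP signalling, had folds above 0 at both ages, 1.07 ± 0.34 (SE) at P2 and 1.41 ± 0.34 (SE) at P10, and a difference of 0.34 (SE 0.48, 95% interval −0.66 to 1.34, unadjusted p = 0.482). Its sign turned without P2 resected replicate 1, at −0.015, and 23.2% of its exon bases overlap the antisense gene Gm15270.

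Contractile genes of myofibroblasts, the activated and contractile form of fibroblasts, had 6 of 16 differences above 0 and a median of −0.04, which ran from −0.22 without P10 resected replicate 1 to 0.05 without P10 sham replicate 3. Acta2, which encodes smooth muscle actin, was at 518, 815 and 676 CPM in P2 sham and 615, 1304 and 1476 in P2 resected libraries, and at 247, 532 and 552 in P10 sham and 673, 656 and 383 in P10 resected libraries. It overlapped at both ages and differed by −0.39 (SE 0.50, 95% interval −1.45 to 0.66, unadjusted p = 0.443). Lmod1, an actin nucleator of smooth muscle, was at 1.3, 0.646 and 0.849 CPM in P2 sham and 3.34, 3.55 and 4.02 in P2 resected libraries, without overlap, and at 3.9, 6.21 and 6.13 in P10 sham and 6.21, 3.24 and 2.72 in P10 resected libraries. Its difference of −2.37 (SE 0.91, unadjusted p = 0.0185) comes from few counts, 55 in all 3 P2 sham libraries.

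Chemokines and cytokines had 20 of 31 differences above 0 and a median of 0.36, which was −0.13 without P10 resected replicate 3 and −0.09 without P2 sham replicate 1. Cx3cl1, a membrane-bound chemokine for monocytes, was at 0.499, 0.259 and 0.236 CPM in P10 sham and 10.2, 8.2 and 6.99 in P10 resected libraries, and at 2.37, 1.38 and 1.37 in P2 sham and 1.82, 2.61 and 4.96 in P2 resected libraries. The P10 groups did not overlap and the P2 groups did, with a difference of 3.77 (SE 1.31, unadjusted p = 0.0101) and 19 counts in P10 sham libraries. Among lists not yet named, differences above 0 were seen for 20 of 32 hypoxia and glycolysis genes (median 0.10), 18 of 29 immediate early and stress genes (median 0.09), 12 of 25 genes of protein folding in the endoplasmic reticulum (median −0.04) and 7 of 22 genes of cholesterol synthesis and uptake (median −0.25). The median of each of these 4 lists changed sign when 1 library or another was left out.

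Several single genes had the smaller fold at P10, among them members of no list. Myo1e, a membrane-linked myosin (chr9:70207350-70399766), was at 8.92, 7.56 and 4.96 CPM in P2 sham and 19.5, 13.8 and 27.9 in P2 resected libraries, which did not overlap, and at 37.3, 34.4 and 30.4 in P10 sham and 26.5, 40 and 18.5 in P10 resected libraries, which did. Its difference was −1.77 (SE 0.50, 95% interval −2.82 to −0.72, unadjusted p = 0.00245), the smallest unadjusted p with the smaller fold among genes with over 3 counts in each group. Nat10, an RNA cytidine acetyltransferase (chr2:103721256-103761270), differed by −1.48 (SE 0.43, unadjusted p = 0.00289), and Pnpla2, the triglyceride lipase ATGL (chr7:141455198-141460743), by −1.17 (SE 0.35, unadjusted p = 0.00388). Eno1b differed by −3.50 (SE 1.05, unadjusted p = 0.00385), but 80.6% of its 75-base stretches also occur in Eno1 and its copies, so its count is uncertain.

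Nr1d1, the circadian repressor REV-ERB alpha, was picked after its values were seen. It was at 136, 166 and 154 CPM in P10 sham and 28, 104 and 48.6 in P10 resected libraries, with no overlap, and at 27.9, 32.4 and 31.9 in P2 sham and 21.9, 61.1 and 68.8 in P2 resected libraries, with overlap. Its difference was −2.05 (SE 0.66, 95% interval −3.44 to −0.67, unadjusted p = 0.00607).

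Few genes had resected libraries apart from sham libraries in opposite directions at the 2 ages. Of the 16170 tested, 16 (0.0989%) were above sham at P10 and below it at P2, and 16 (0.0989%) the reverse. Of these 32, 26 had over 3 counts in each surgery group. Another 97 genes were apart upward at both ages and 30 downward at both. Taken age by age, 5.62% of the genes tested were apart upward at P2 and 5.63% at P10, and 2.85% and 3.04% downward. Ercc4, a nuclease subunit of nucleotide excision repair (chr16:13109684-13150617), was at 20.3, 18.9 and 16.5 CPM in P2 sham and 14.8, 16.3 and 13.6 in P2 resected libraries, and at 13.3, 12.1 and 14 in P10 sham and 23.7, 22.7 and 28.5 in P10 resected libraries. Its difference was 1.25 (SE 0.37, 95% interval 0.47 to 2.03, unadjusted p = 0.00347). Lekr1 was placed the same way, with a difference of 2.42 (SE 0.74, unadjusted p = 0.00432).

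Emp2, a tetraspan membrane protein (chr16:10281749-10313968), was at 81.9, 89 and 108 CPM in P2 sham and 112, 127 and 118 in P2 resected libraries, and at 153, 169 and 170.1 in P10 sham and 117, 131 and 119 in P10 resected libraries, which is the reverse order. Its difference was −0.78 (SE 0.26, 95% interval −1.32 to −0.24, unadjusted p = 0.00745). Prickle1, a planar cell polarity protein (chr15:93499114-93595891), was above sham at P2 and below it at P10 with log2 folds of 0.79 ± 0.22 (SE) and −0.17 ± 0.22 (SE), and differed by −0.96 (SE 0.32, unadjusted p = 0.00694). Ercc4, Lekr1, Emp2 and Prickle1 were picked after their values were seen.

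**Figure D5:**
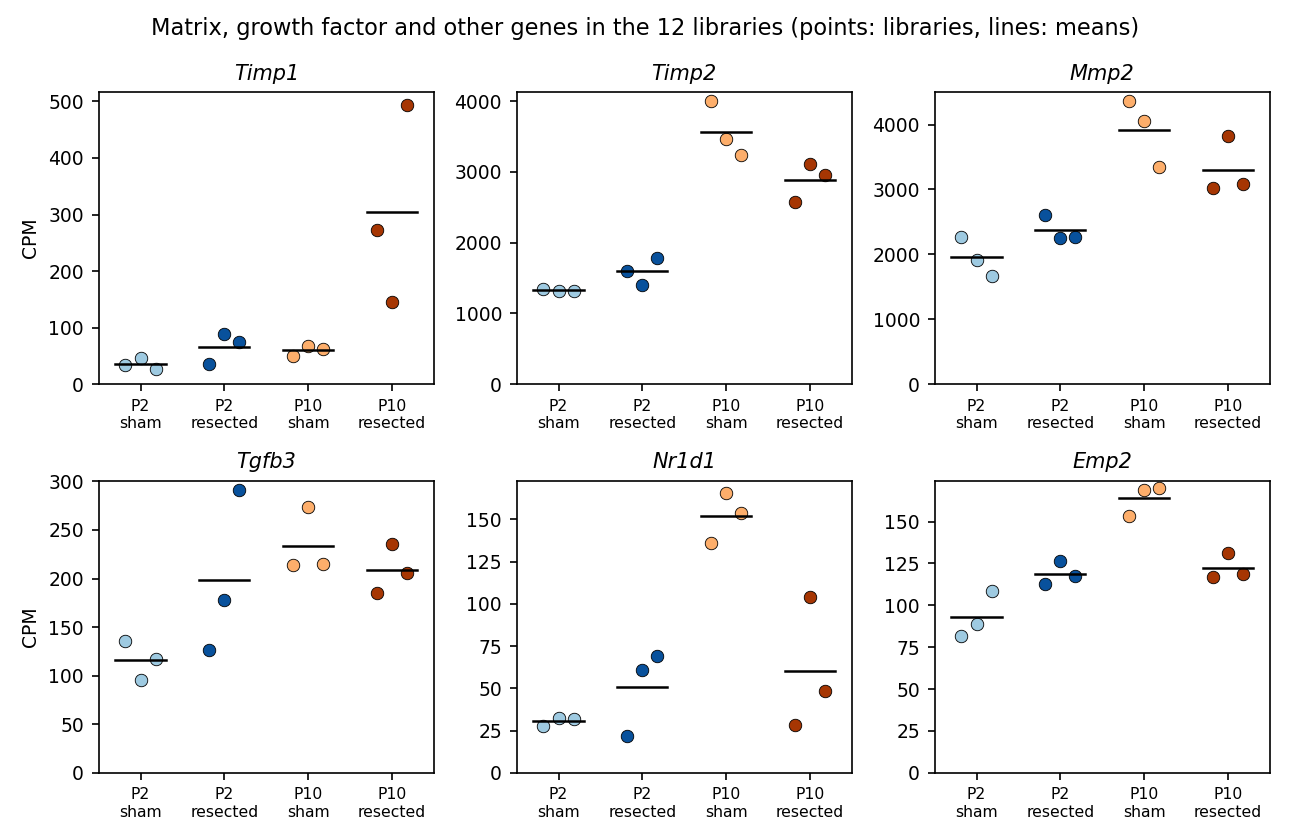
CPM on linear axes that start at 0 for 6 genes in the 12 libraries (points), with group means as lines. Timp1 is highest in the 3 P10 resected libraries, whereas Timp2 and Emp2 are above sham at P2 and below sham at P10 in every resected library.

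Part of the smallest p-values came from genes with no counts in a group, where a log2 difference has no usable size. Of the 465 genes with an unadjusted p under 0.05, 271 had a surgery group with 3 counts or fewer in total, and so had 15 of the 24 genes that the naming rule took, 12 in each direction. Of those with the larger fold at P10, Pfkfb1, Parpbp, Shroom2, Wdfy4, Hmga2 and Gm45453 had 0 counts in all P10 sham libraries. Parpbp, a partner of PARP1 in DNA repair, had 72 counts in P10 resected libraries, at least 27.9-fold above the level of 3 counts in P10 sham libraries, against 438 and 334 counts in P2 sham and P2 resected libraries. Pfkfb1, a regulator of glycolysis, had 85 counts in P10 resected libraries, at least 33.0-fold above that level. Gm42575 had 79 counts in P2 sham, 0 in P2 resected, 0 in P10 sham and 55 in P10 resected libraries, with counts in each library of the groups where it was found. Of those with the smaller fold at P10, Grip2, Trpc4, Ccdc9b, Gm16299, Itih4, Gm45413 and Kdm4d had 0 counts in all P2 sham libraries. Trpc4, a cation channel, had 94 counts in P10 sham libraries and 0 in P10 resected libraries, and 5 counts in P2 resected libraries.

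Spp1, which encodes the secreted matrix protein osteopontin and was named after its values were seen, was at 0, 2.17 and 0.131 CPM in P2 sham and 36.6, 124 and 18.5 in P2 resected libraries, and at 0.3, 1.75 and 0 in P10 sham and 108, 212 and 26.3 in P10 resected libraries. The groups were apart at both ages, and the difference was 1.24 (SE 1.95, 95% interval −2.91 to 5.39, unadjusted p = 0.533).

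Markers of other cell types had differences of their own, none of them called by edgeR with the filter on low counts. Without that filter edgeR called Hbb-bs (adjusted p = 0.00103) and Fabp4 (adjusted p = 0.000405). DESeq2 called Tlr13 and Wdfy4 of the wound macrophage list in opposite directions, each with a group at 0 counts. Tlr13 (adjusted p = 0.000153) had the smaller fold at P10 and Wdfy4 (adjusted p = 0.0253) the larger. Erythroid markers had 6 of 7 differences above 0 with a median of 2.29 (1.48 without P2 sham replicate 2), and summed levels of 50.99 to 308.4 CPM in P2 sham, 44.01 to 115.5 in P2 resected, 66.86 to 142 in P10 sham and 84.76 to 479.7 in P10 resected libraries. Hbb-bs, an adult beta globin, was at 26.5, 168 and 75.6 CPM in P2 sham, 55.5, 20.6 and 42.9 in P2 resected, 62.7, 69.3 and 37.1 in P10 sham and 253, 142 and 39.7 in P10 resected libraries, with overlap at both ages. It differed by 2.55 (SE 0.90, unadjusted p = 0.0113) and shares 51.5% of its 75-base stretches with Hbb-bt. Epicardial markers had 8 of 9 differences above 0 with a median of 3.66, which was 0.28 without P10 resected replicate 1.

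Cardiomyocyte markers had 11 of 13 differences above 0 (median 0.85), endothelial markers 7 of 10 (median 0.58), wound macrophage markers 6 of 7 (median 0.81), neutrophil and lymphocyte markers 5 of 7 (median 2.42), macrophage markers 4 of 15 (median −0.39), mural cell markers 2 of 10 (median −0.37) and Schwann and neuronal markers 0 of 4 (median −0.56). The single adipocyte marker tested had a group at 0 counts. Fabp4, a fatty acid binding protein of endothelial cells, was at 28.3, 76.7 and 234 CPM in P2 sham, 97, 22.3 and 50.5 in P2 resected, 67.3, 89.8 and 52.4 in P10 sham and 379, 59.1 and 208 in P10 resected libraries, and differed by 2.62 (SE 1.17, unadjusted p = 0.0379). Summed macrophage markers were 7.755 to 206.9 CPM in P2 sham and 75.81 to 478.1 in P2 resected libraries, and 12 of the 15 were at 0 in P2 sham replicate 1. The part of these cells in the differences above was not tested. With 1 library left out, the median changed sign for endothelial markers (−0.47 without P2 sham replicate 3 to 2.56 without P2 resected replicate 1) and macrophage markers (−1.29 without P2 sham replicate 3 to 0.45 without P2 resected replicate 1). It ran from 0.23 without P2 sham replicate 2 to 1.86 without P10 sham replicate 2 for wound macrophage markers, and from 0.42 without P2 sham replicate 3 to 5.02 without P10 sham replicate 2 for neutrophil and lymphocyte markers. It ran from 0.41 without P10 resected replicate 1 to 1.72 without P10 sham replicate 2 for cardiomyocyte markers, and from −0.83 without P2 sham replicate 1 to −0.11 without P2 sham replicate 3 for mural cell markers. For Schwann and neuronal markers it ran from −1.18 without P2 sham replicate 1 to −0.30 without P10 resected replicate 3.

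Genes that mark the fibroblasts themselves had a median difference near 0. The 14 cardiac fibroblast markers had 6 differences above 0 and a median of −0.07, which ran from −0.21 without P10 sham replicate 2 to 0.07 without P10 sham replicate 1. Tcf21 was at 251, 448 and 296 CPM in P2 sham, 341, 209 and 202 in P2 resected, 231, 284 and 332 in P10 sham and 296, 247 and 251 in P10 resected libraries, with overlap at both ages. Its difference was 0.31 (SE 0.37, 95% interval −0.46 to 1.08, unadjusted p = 0.411), and that of Pdgfra −0.08 (SE 0.56, 95% interval −1.27 to 1.11, unadjusted p = 0.888). Postn, which encodes the matrix protein periostin, differed by −0.05 (SE 0.61) and Fn1, fibronectin, by −0.22 (SE 0.72). Dlk1, Igf2 and H19, imprinted genes of fetal growth, differed by −0.62, −0.17 and 0.03, and Thbd, Pcolce2 and Cilp by 0.18, 0.21 and −0.54. The exons of Igf2 overlap those of other genes over 64.5% of their bases, so its count is uncertain.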

How the data were processed

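Bulk RNA sequencing of the GFP+ cells used SMARTer v4 cDNA and Nextera XT libraries, read from a single end. Per the submitters' notes and methods, the authors trimmed with fastp 0.20.0, mapped with STAR 2.7.0f to GRCm38.p6 and GENCODE M22, and counted exon reads per gene name without strand with featureCounts (Subread 1.6.4). The deposited values are raw whole-number counts, not normalised.

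edgeR 4.0.16 (R 4.3.3) was fitted here to all 18 libraries with 1 mean for each of 6 groups, TMM factors and filterByExpr (10 counts in enough libraries, total of at least 15). Baseline libraries entered the fit and not the comparison. The difference was a contrast of group means, tested by quasi-likelihood with Benjamini-Hochberg adjustment at 0.05, and the script was checked on simulated data. DESeq2 1.42.0 and limma 3.58.1 were alternatives, with other scalings and filters, a replicate block and each library left out. A group with no count was set to 3 counts over the group for a lower bound, which covers counting error only. Totals of 14297349 to 22980554 counts per library set the precision, and replicate pairs differed by more than sampling noise (chi-square per gene 35.5 to 295).

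Named genes were the 12 in each direction with the smallest unadjusted p among genes reaching 1 CPM in a group, the 3 smallest of each list, collagens, fibroblast markers and a few set genes. Others, Psrc1, Pimreg, Ndc80 and Rtp4 included, were named after their values were seen. The members and lists were chosen with earlier results of these data known. A few named genes are not reported here. Coordinates are from GENCODE M21 on GRCm38, 1 release before the annotation used for counting.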

Additional observations from a re-analysis of the deposited data

Results flagged for a closer look

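In 6 named genes with over 3 counts in each surgery group, every resected library stood above the sham libraries at 1 age and below them at the other. Gm42575 and Gm16299, named above for a group with 0 counts, showed such a reversal as well. The edgeR test of the difference did not pass for any of them after adjustment, and 32 of the 16170 genes tested showed such a reversal. Above sham at P10 and below it at P2 were Lekr1, with a difference of 2.42 on the log2 scale (unadjusted p = 0.00432), Psrc1 with 2.34 (unadjusted p = 0.0043) and Ercc4 with 1.25 (unadjusted p = 0.00347). Below sham at P10 and above it at P2 were Timp2 with −0.57 (unadjusted p = 0.0206), Prickle1 with −0.96 (unadjusted p = 0.00694) and Emp2 with −0.78 (unadjusted p = 0.00745).

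Interferon-stimulated genes were also high in 3 of the 6 libraries outside the comparison. Their mean log2 CPM was 4.42 over the 3 P2 baseline libraries (3.73 to 4.98), against 2.71 in P2 sham libraries, and 1.92 to 2.16 over the 3 P10 baseline libraries, below each of the surgery libraries (lowest 2.54). Both baseline groups were collected without surgery.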

How the results depend on the processing

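edgeR called 0 genes for the difference, for the P2 effect and for the P10 effect. DESeq2 called 26, 34 and 42, and edgeR without the filter on low counts called 30, 24 and 76. All 30 had passed the filter, and 11 had a group with 3 counts or fewer. The others included Kif20a, Cenpe, Isg15, Nr1d1, Hbb-bs and Fabp4. With a replicate block the counts were 0, 1 and 1, the gene being Spp1 (adjusted p = 0.0303 at P2 and 0.00811 at P10). Replicate numbers did not pair sham with resected samples at either age. Over all group pairs, 8 of 18 same-numbered pairs had correlated deviations over 0.1 (range −0.135 to 0.291), and P2 resected with P10 resected was the only group pair in which all 3 did (0.121, 0.189 and 0.13), each the best match of its P2 resected sample. Leaving out 1 library gave 0 to 4 calls for the difference and 0 to 5 at P10, the highest without P10 sham replicate 2, and 0 at P2. The 4 were Bub1, Iqgap3, Troap and Cdc25c (adjusted p 0.00804 to 0.0425), and the fifth at P10 was Kif20a (adjusted p = 0.0379). Without that library the P10 sham group had 0 counts for Bub1, Iqgap3, Troap and Cdc25c.

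Of 980 recomputed gene differences, 963 kept their direction and side of the threshold, 11 passed it and 6 changed sign. The sign changes were those of Ccn2 (−0.015 to 0.60 with 1 library left out) and Pdgfra (−0.52 to 0.49, and 0.0034 by voom), both with intervals around 0. With 1 library left out, medians ranged from −0.80 to 0.13 for basement membrane genes, −0.51 to 0.15 for proteases and inhibitors, −0.13 to 0.86 for chemokines and 0.28 to 2.00 for interferon-stimulated genes. The lowest of the last was without P10 resected replicate 3. G2/M medians stayed between 0.81 and 1.53 and S phase medians between 0.33 and 0.87. Other causes were not tested. The adipocyte list had no tested gene under the strict filter.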

Other observations

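Libraries from P10 hearts without surgery had G2/M levels within the range of the P10 resected libraries. The mean log2 CPM of the G2/M genes was 4.69, 3.63 and 3.62 in the 3 P10 baseline libraries, within the 3.59 to 4.75 of the P10 resected libraries and above the 2.59 to 3.44 of the P10 sham libraries. Baseline pups were collected at P10 and sham pups at P13, so age and sham surgery cannot be told apart in that gap. The P2 baseline libraries, at 6.02 to 6.16, lay near the P2 sham and P2 resected libraries.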
